A study of Mus musculus with 170 samples.

Results

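A set of 10 genes of the YAP-TEAD system, among them the CCN genes Ctgf and Cyr61, were followed through single cells of the embryonic mouse heart with and without Dgcr8. The genes are Ctgf, Cyr61, Ankrd1, Amotl2, Axl and Lats2, which are reported targets of YAP-TEAD, and Amotl1, Yap1, Wwtr1 and Tead1, which act upstream in the pathway or at the DNA. They are 10 of the 40549 genes in the expression table. They were chosen by name, with Ctgf and its companions selected on earlier values of these cells, namely their levels in Dgcr8-deleted and control cells and their relation to Ctgf. The differences between genotypes and the relations to Ctgf given here are therefore descriptions, with no test.

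Cells came from the ventricular part of hearts at embryonic day 9.5 on the C57BL/6 strain. Control hearts, labelled wild type, carried Dgcr8 loxP/loxP and the ROSA26 mT/mG reporter without Cre, as the methods of the study give it. The cKO hearts carried the same floxed Dgcr8 and reporter alleles with Mesp1 Cre/+, which deletes Dgcr8 in the mesoderm progenitors that form most of the heart. Dgcr8 is the RNA-binding partner of Drosha, and the 2 proteins together release microRNA precursors from their primary transcripts. Both genotypes thus share the floxed alleles, and they differ in Cre as well as in Dgcr8. The sex of the embryos, as their transcripts show it, was split in the same way: Xist, made from the inactive X, reached 1 TPM in 0 of 29 control and 64 of 67 cKO cardiomyocyte-like cells, and the Y-linked Ddx3y in 19 of 29 and 0 of 67. The differences between genotypes given here therefore cannot be told apart from differences between the sexes of the sampled embryos. The table holds 143 cells, 74 control and 69 cKO, spread over the 2 batches that the labels name and that the study describes as sequencing batches. The cells were picked by hand and no label says which embryo a cell came from. Each genotype was therefore treated as 1 sample, with no test between genotypes, and an SD here is the scatter across cells. Values are TPM, a length-corrected abundance in which every cell sums to the same total, which the authors obtained with Salmon, or log2(TPM + 1).

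YAP (Yap1) and TAZ (Wwtr1) are coactivators that cannot bind DNA themselves and work through the TEAD factors. The Hippo kinases, with LATS1 and LATS2 as the last step, phosphorylate them and keep them out of the nucleus. Angiomotin family proteins, here Amotl1 and Amotl2, hold them at cell junctions and the cytoskeleton. In the embryonic heart YAP is known as a driver of cardiomyocyte proliferation. Ctgf and Cyr61 encode secreted matricellular proteins of the CCN family, and both are widely used as readouts of YAP-TEAD.

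TEAD factors recognise a short core that reads GGAATG on one strand and CATTCC on the other. RefSeq promoter windows on GRCm38.p6, running from 250 bases before to 50 bases after a transcript start, were found for 8 of the 10 genes; Ctgf and Tead1 have no entry. The core was present on either strand in 7 of these 8 genes, and in 4481 of all 27025 genes with a window (16.6%). Amotl1 was the gene with windows and no match. The matches are printed below with 12 bases on each side, to show what the reported targets and the coactivator genes share in letters, with the core in capitals. Each line reads 5′ to 3′ on the strand of the gene.
Cyr61: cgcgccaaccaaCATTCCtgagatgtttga
Ankrd1 (distal): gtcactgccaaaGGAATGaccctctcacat
Ankrd1 (proximal): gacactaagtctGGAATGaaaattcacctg
Amotl2: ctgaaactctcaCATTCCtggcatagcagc
Axl: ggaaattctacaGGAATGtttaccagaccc
Lats2: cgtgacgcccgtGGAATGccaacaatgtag
Yap1: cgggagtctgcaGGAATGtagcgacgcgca
Wwtr1: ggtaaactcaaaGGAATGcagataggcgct

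The Cyr61 line is chr3:145650071-145650100 on the minus strand, and its core begins 103 bases before the start. The Ankrd1 lines are chr19:36120037-36120066 and chr19:36119950-36119979, minus strand, with cores 210 and 123 bases before the start. Ankrd1 was the only gene of the 8 with 2 cores. The Amotl2 line is chr9:102717727-102717756 on the plus strand, 65 bases before the start. The Axl line is chr7:25788949-25788978 on the minus strand, 233 bases before the start. The Lats2 line is chr14:57746102-57746131 on the minus strand, and its core begins at base 5 of the transcript. The Yap1 and Wwtr1 lines are chr9:8004720-8004749 and chr3:57576029-57576058, both on the minus strand, 141 and 136 bases before the start. By GENCODE vM21 the cores of Cyr61, Axl, Yap1 and Wwtr1 lie outside the gene, while those of Ankrd1, Amotl2 and Lats2 lie in an annotated untranslated exon of the gene. A match is a run of letters and says nothing of whether a factor was bound there.

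Cells were grouped into clusters by 55 marker genes outside the set, and 96 cells formed a cardiomyocyte-like (CM-like) cluster in which all 15 cardiomyocyte markers were high. It held 29 control cells, 19 of batch 1 and 10 of batch 2, and 67 cKO cells, 33 and 34. The remaining cells were 21 endothelial-like cells, 3 erythroid-like cells and 13 cells of an unnamed cluster with epicardial and mesenchymal markers, all control, and 10 cells of an unnamed cluster led by mitochondrial transcripts, 8 control and 2 cKO. Dgcr8 itself, read over the whole gene and so not only over the deleted part, was at or above 1 TPM in 16 of 29 control and 21 of 67 cKO CM-like cells. Between 3805 and 11468 genes had a TPM above 0 in a control CM-like cell and between 4244 and 11044 in a cKO one. The median mitochondrial share of TPM was 6.30% and 3.00%. Markers of other cells were low in most CM-like cells: in either genotype, 2 of 13 endothelial, 0 of 14 mesenchymal, 1 of 6 epicardial and 0 of 7 erythroid markers reached 1 TPM in over 50% of the cells. Summed over each list, endothelial markers ranged up to 232 TPM in control and 412 TPM in cKO cells, mesenchymal markers up to 111 and 121 TPM, epicardial markers up to 533 and 454 TPM, and erythroid markers up to 35446 and 555 TPM. Lum was at 0 in every CM-like cell, Postn and Klf1 in every cKO one. The part of these other transcripts in the results was not tested, but without the 5 control and 2 cKO cells in which erythroid or epicardial markers were highest the Ctgf difference below was 3.80 instead of 2.99.

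Of the 10 genes, 5 were higher in cKO than in control CM-like cells by the rule used throughout: a difference of at least 1 in mean log2(TPM + 1), with the same sign in both batches. These 5 were Ctgf, Ankrd1, Axl, Lats2 and Tead1, that is 4 of the 6 reported targets and 1 of the 4 pathway genes. None of the 10 was lower by the rule. Of all 15150 genes with a TPM above 0 in more than 10 CM-like cells, 5.96% were higher and 6.71% lower by the same rule, and all 10 genes passed that filter. Since the genes were chosen with these values in view, nothing is read from the count. The median difference of the 10 genes was 1.20, against 0.03 for all genes. The genes nearest the limit of 1 were Lats2 above it, at 1.23, and Cyr61 below it, at 0.91, while Wwtr1 passed it at 1.17 without agreement between batches.

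**Figure D1:**
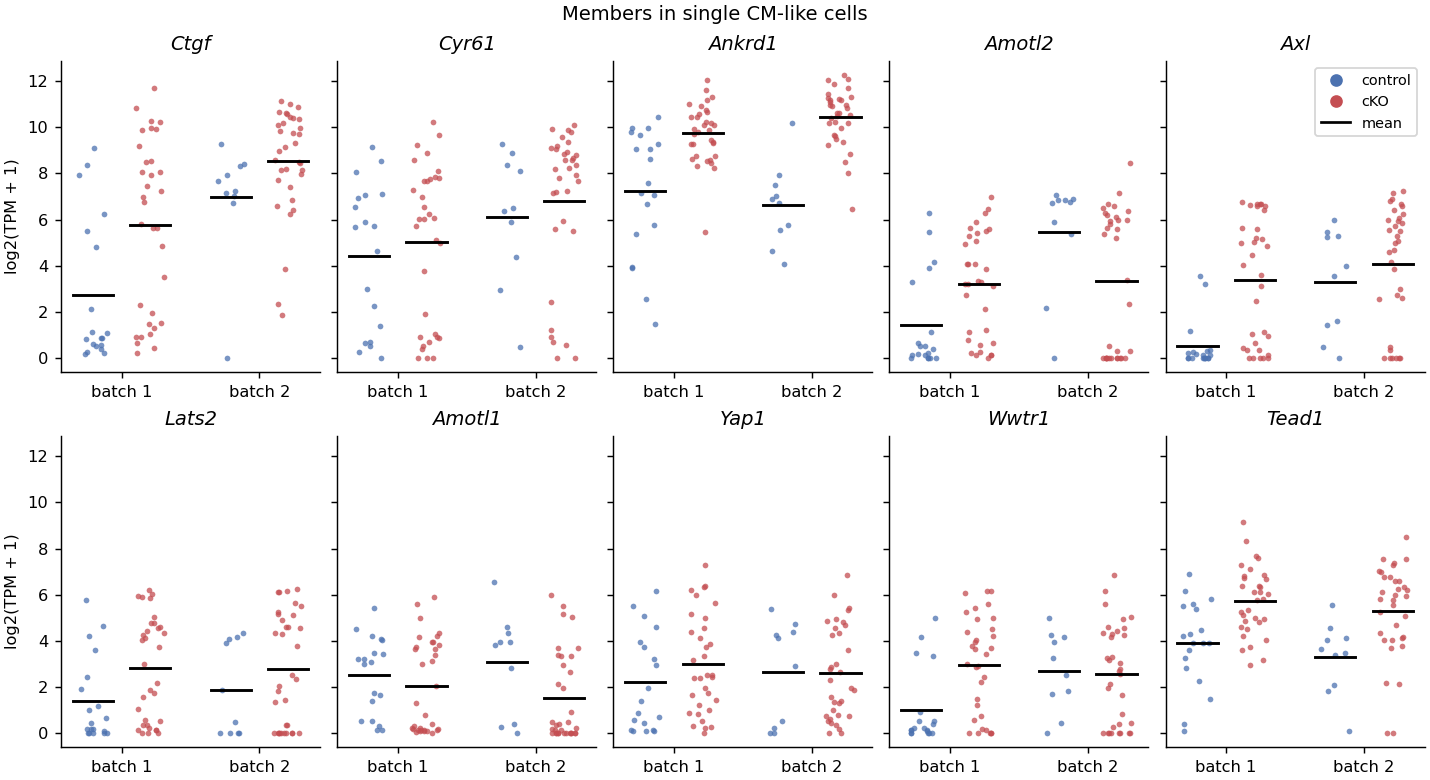
Each point is 1 CM-like cell, with log2(TPM + 1) on the vertical axis and the cells grouped by batch and genotype (control blue, cKO red); black lines are means. Ankrd1 and Tead1 had the higher means in cKO cells whichever the batch, while Ctgf, Amotl2 and Axl were also much higher in batch 2 than in batch 1 control cells.

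Ctgf, the gene around which the set was built, was found at 0 to 613 TPM in control CM-like cells, with a median of 27.2 TPM. In cKO CM-like cells it ran from 0.151 to 3393 TPM, with a median of 283 TPM. The ranges overlapped: 23 of 67 cKO cells lay above every control cell, and 5 of 29 control cells lay above the cKO median. It reached 1 TPM in 18 of 29 control cells (62.1%, 95% interval 42.3 to 79.3) and in 62 of 67 cKO cells (92.5%, 83.4 to 97.5). These intervals are exact Clopper-Pearson intervals and cover counting error only. The mean log2(TPM + 1) was 4.18 ± 3.57 (SD, n = 29 cells) in control and 7.16 ± 3.39 (SD, n = 67 cells) in cKO, a difference of 2.99, and the ratio of the mean TPM values was 4.79. Of the 15150 genes, 29 had a larger difference.

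The Ctgf difference was not the same in the 2 batches. In batch 1 the median was 0.804 TPM in control and 106 TPM in cKO cells, and the difference of the log2 means was 3.04. In batch 2 the medians were 177 and 533 TPM, and the difference was 1.57. The median of batch 2 control cells was thus above that of batch 1 cKO cells, while the mean TPM was below it (225 against 406 TPM). Of the batch 2 control cells 9 of 10 reached 100 TPM, against 3 of 19 in batch 1. The remaining batch 2 control cell held Ctgf at 0 TPM and had 3805 genes above 0. It lowers the control mean and so widens the batch 2 difference of 1.57, which was not recomputed without that cell. The same cell held Axl and Lats2 at 0 TPM and Cyr61 and Tead1 under 1 TPM, which widens their batch 2 differences in the same way. The step of Ctgf from batch 1 to batch 2 was 4.27 in control and 2.80 in cKO cells on the log2 scale. The first of these exceeded the pooled difference between genotypes. A smaller part of the control than of the cKO cells came from batch 2, and the mean of the 2 within-batch differences was 2.30. What set the batches apart, beyond their sequencing, was not tested.

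Cyr61, the second CCN gene measured at a high level, differed less. Its values were 0 to 629 TPM in control cells, with a median of 58.5 TPM, and 0 to 1205 TPM in cKO cells, with a median of 148 TPM. The share of cells at 1 TPM or more was 79.3% in control and 79.1% in cKO cells. The upper parts of the distributions differed, with 37 of 67 cKO and 10 of 29 control cells at 100 TPM or more. The difference of the means was 0.91 over all cells, 0.59 in batch 1 and 0.67 in batch 2, each far below the scatter across cells (SD 3.11 in control, 3.45 in cKO). Like Ctgf it was higher in batch 2 in both genotypes, by 1.70 in control and 1.79 in cKO.

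Ankrd1, a cardiac ankyrin repeat protein of the nucleus and the sarcomere that responds to stretch, gave the widest separation of the 10 genes. It was present at 1 TPM or more in every CM-like cell. Control cells ran from 1.74 to 1389 TPM with a median of 133 TPM, and cKO cells from 42.5 to 4916 TPM with a median of 1203 TPM. Of the 67 cKO cells 65 lay above the control median and 30 above every control cell, and 1 of 29 control cells lay above the cKO median. The difference of the log2 means was 3.08, with 2.51 in batch 1 and 3.82 in batch 2. Unlike Ctgf, Ankrd1 moved little between batches, by -0.60 in control and 0.70 in cKO. Cells without any Ankrd1 were not seen, so the difference was one of level and not of the share of cells.

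Axl, a receptor tyrosine kinase for the ligand Gas6, was near the limit of detection in control cells of batch 1. Over both batches together it differed in share and level. Control cells ran from 0 to 62.8 TPM with a median of 0.183 TPM, and cKO cells from 0 to 149 TPM with a median of 24.9 TPM. It reached 1 TPM in 11 of 29 control cells (37.9%, 95% interval 20.7 to 57.7) and in 48 of 67 cKO cells (71.6%, 59.3 to 81.99). The difference of the log2 means was 2.28 over all cells. By batch it was 2.90 and 0.78. The batch 2 value includes the control cell with Ctgf at 0 TPM, which also held Axl at 0 TPM. In batch 1, 3 of 19 control and 22 of 33 cKO cells reached 1 TPM. In batch 2 it was 8 of 10 and 26 of 34, with medians of 12.7 and 31.4 TPM. The higher share in cKO cells was thus seen in batch 1 alone.

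Lats2, the kinase that phosphorylates YAP and is itself induced by it, showed a smaller difference. It ran from 0 to 53.6 TPM in control cells, with a median of 0.373 TPM, and from 0 to 73.6 TPM in cKO cells, with a median of 4.70 TPM. It reached 1 TPM in 41.4% of control and 65.7% of cKO cells. The difference was 1.23, and it was 1.40 and 0.90 by batch, each smaller than the scatter across cells in either genotype.

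Amotl2, an angiomotin family scaffold that is both a reported target and an inhibitor of YAP, went in opposite directions in the 2 batches. In batch 1 the control median was 0.287 TPM and the cKO median 8.73 TPM. In batch 2 the control median was 105 TPM and the cKO median 22.3 TPM. The differences of the log2 means were 1.77 and -2.14, so that the pooled value of 0.44 describes neither batch. Amotl2 stepped up by 4.04 from batch 1 to batch 2 in control cells and by 0.13 in cKO cells.

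**Figure D2:**
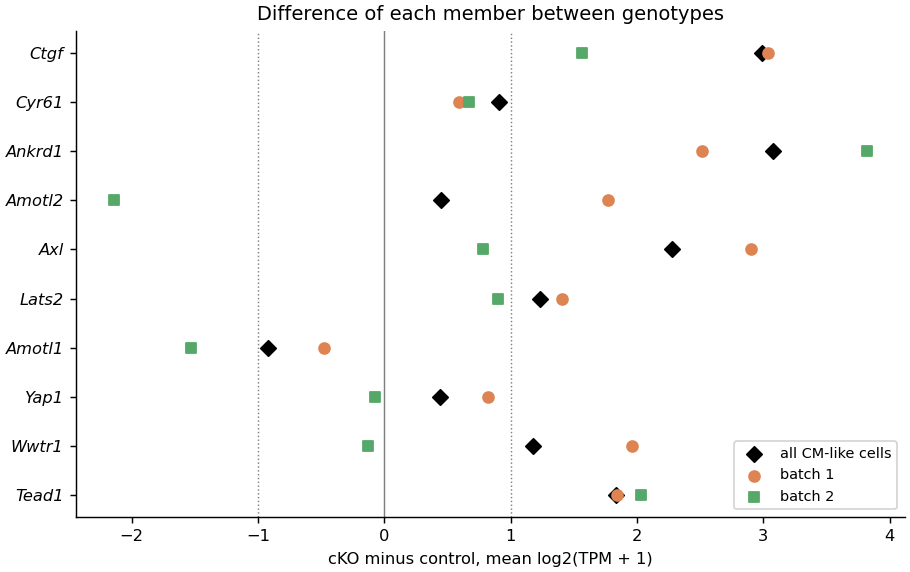
Difference of the mean log2(TPM + 1), cKO minus control, of each gene over all CM-like cells (diamonds) and in batch 1 (circles) and batch 2 (squares); dotted lines mark -1 and 1. Both batches lay above 0 for 6 genes, both below 0 for Amotl1, and on opposite sides for Amotl2, Yap1 and Wwtr1.

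Of the pathway genes, Tead1, the DNA-binding partner of YAP and TAZ, was the one that differed alike in both batches. It ran from 0.0509 to 119 TPM in control cells, with a median of 13.9 TPM, and from 0 to 567 TPM in cKO cells, with a median of 55.2 TPM. Of 67 cKO cells 57 lay above the control median, and 13 above every control cell. The difference of the log2 means was 1.84 over all cells, 1.84 in batch 1 and 2.03 in batch 2. The step between batches was -0.62 in control and -0.43 in cKO cells.

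The coactivators themselves showed no such agreement. Yap1 had a median of 2.85 TPM in control cells, ranging from 0 to 71.3 TPM, and of 4.33 TPM in cKO cells, ranging from 0 to 154 TPM. The gap between genotypes was 0.82 within batch 1 and -0.07 within batch 2. Wwtr1, which encodes TAZ, had a median of 0.419 TPM in control cells, from 0 to 30.6 TPM, and of 7.03 TPM in cKO cells, from 0 to 116 TPM. Its difference was 1.96 within batch 1 and -0.13 within batch 2. Control cells rarely held Wwtr1 in batch 1 (4 of 19 at 1 TPM or more) and mostly held it in batch 2 (8 of 10). Amotl1, the second angiomotin family scaffold, was the gene that leaned the other way. Its median was 8.23 TPM in control cells, from 0 to 91.1 TPM, and 0.380 TPM in cKO cells, from 0 to 61.8 TPM. It reached 1 TPM in 72.4% of control and 44.8% of cKO cells. The difference was -0.92, with -0.48 and -1.53 by batch, and so just short of the rule.

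Steps of 1 or more between batches were more numerous in control than in cKO cells, which was not tested. From batch 1 to batch 2, 8 of the 10 genes were higher in control CM-like cells, and 5 of them by 1 or more; these were Ctgf, Amotl2, Axl, Cyr61 and Wwtr1. In cKO cells 5 of the 10 genes were higher and 2 of them, Ctgf and Cyr61, by 1 or more. Over all genes the step was a median of 0.37 in control cells, with 24.97% of genes at 1 or more, and of -0.07 in cKO cells, with 2.28%. Control cells of batch 2 also had more genes above 0 (median 9679 against 8458), whereas cKO cells of batch 2 had fewer (7765 against 9845). The part of detection in these steps was not tested.

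Outside the CM-like cluster the 10 genes fell into different patterns, all read in control cells. Ctgf stood at a mean log2(TPM + 1) of 5.89 ± 2.48 (SD, n = 21 cells) in the endothelial-like and 5.82 ± 2.81 (SD, n = 13 cells) in the epicardial-mesenchymal cluster, which did not differ beyond their scatter. Over both batches together, control CM-like cells, at 4.18, were below both, and cKO CM-like cells, at 7.16, were above both. Each of these gaps was smaller than the scatter across cells. The clusters differ in their share of batch 2 cells. In batch 1 control CM-like cells were at 2.71, endothelial-like cells at 4.01 and epicardial-mesenchymal cells at 3.32. In batch 2 these means were 6.98, 6.83 and 6.93, so control CM-like cells were not lower there. Over both batches, Cyr61 was highest in the endothelial-like cells, at 7.50 ± 2.17, and the epicardial-mesenchymal cells, at 7.17 ± 2.41. The cKO CM-like cells were at 5.92 and control CM-like cells at 5.01. The order of the first 2 clusters changed with the batch. Endothelial-like cells were at 8.52 and epicardial-mesenchymal cells at 4.88 in batch 1, against 6.99 and 8.19 in batch 2.

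Ankrd1 followed another order, with the CM-like cells on top. Its mean was 10.10 in cKO and 7.02 in control CM-like cells, 5.03 ± 2.39 in epicardial-mesenchymal cells and 1.94 ± 1.49 in endothelial-like cells. Axl and Lats2 were highest in the epicardial-mesenchymal cluster, at 4.65 ± 2.18 and 4.69 ± 1.84, above the cKO CM-like means of 3.74 and 2.78. Over both batches, Amotl1, Amotl2 and Wwtr1 were highest in endothelial-like cells. There Amotl1 was at 1 TPM or more in 21 of 21 cells, with a mean of 4.86 ± 1.10, against 3 of 13 epicardial-mesenchymal cells. Amotl2 had a mean of 5.53 ± 2.39 and Wwtr1 of 4.51 ± 2.30 in the endothelial-like cells. In batch 1 alone Wwtr1 was lower there, at 2.26, than in cKO CM-like cells, at 2.96. In batch 2 Amotl2 was at 5.53 in endothelial-like and 5.45 in control CM-like cells, a gap far below the scatter across cells. Tead1 was higher in the epicardial-mesenchymal (4.38 ± 1.57) than in the endothelial-like cells (2.42 ± 1.69), and cKO CM-like cells had the highest mean, 5.51. Over both batches, Yap1 varied least among these clusters, from 2.35 in control CM-like to 3.01 in endothelial-like cells. Within batch 1 it varied more, from 0.80 in the 4 epicardial-mesenchymal cells to 3.17 in endothelial-like cells. The 3 erythroid-like cells were too few to order, and Amotl1 was at 0 in all of them.

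**Figure D3:**
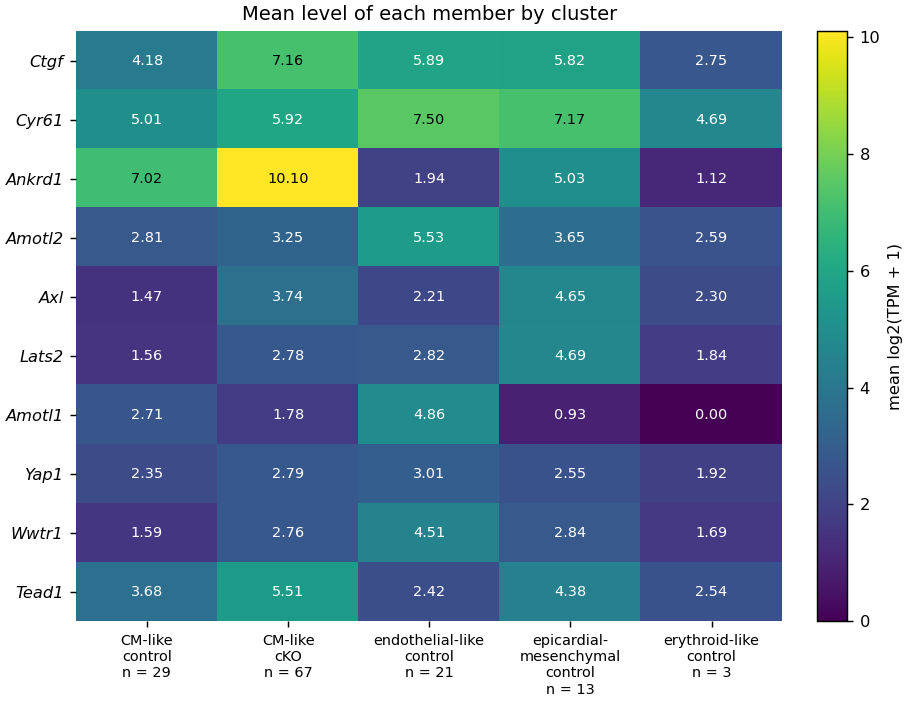
Mean log2(TPM + 1) of each gene (rows) in 4 clusters of cells, with CM-like cells split by genotype (columns, n = cells); brighter is higher. Over both batches together, Ankrd1 was highest in CM-like cells, Cyr61, Amotl2, Amotl1 and Wwtr1 in endothelial-like cells, and Axl and Lats2 in the epicardial-mesenchymal cluster. Cyr61 and Wwtr1 did not keep this order in each batch.

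Within the cKO CM-like cells, whether the other targets went with Ctgf was described by Spearman's rho across cells, taken within each batch (33 and 34 cells). Of the 5 other reported targets, 3 reached a rho of 0.3 in both batches. They were Cyr61, at 0.46 and 0.56, Ankrd1, at 0.56 and 0.42, and Axl, at 0.36 and 0.52. Of all 15066 genes with a value, 1.40% reached 0.3 in both batches. Lats2, at 0.15 and 0.41, and Amotl2, at 0.06 and 0.40, did so in batch 2 alone. None of the 4 pathway genes did so in both batches. Tead1, higher in cKO cells as it was, had a rho of -0.18 and 0.17. Yap1 had 0.07 and 0.21, Wwtr1 0.36 and -0.07, and Amotl1 0.27 and 0.18. The median of the mean rho was 0.44 for the 5 targets and 0.14 for the 4 pathway genes, against 0.06 for all genes, of which the middle 90% ran from -0.17 to 0.29. Because the relation to Ctgf was part of how the genes were picked, nothing is drawn from these counts. The cells of 1 batch share their sequencing, and how many embryos they came from is not given.

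**Figure D4:**
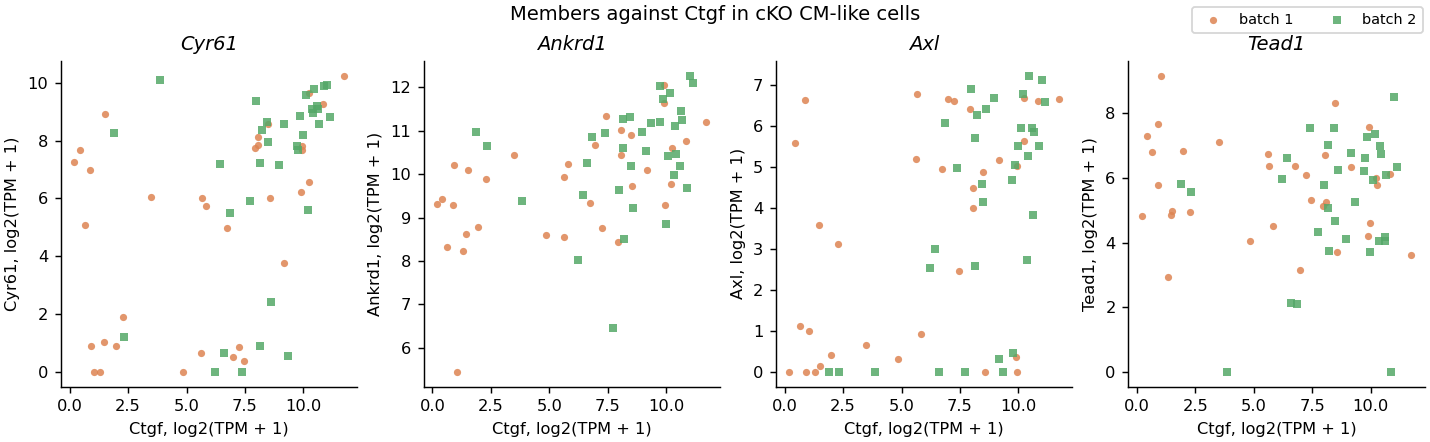
Each point is 1 cKO CM-like cell, with Ctgf on the horizontal and Cyr61, Ankrd1, Axl or Tead1 on the vertical axis, all as log2(TPM + 1); circles are batch 1 and squares batch 2. Cells high in Ctgf were mostly also high in Cyr61, Ankrd1 and Axl, although some lacked Cyr61 or Axl, and Tead1 showed no such relation.

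Few other pairs passed the same limit. Of the 45 pairs among the 10 genes, 4 had a rho of at least 0.3 in both batches, and 3 of these were the pairs with Ctgf. The pair without Ctgf was Yap1 with Tead1, at 0.47 and 0.42. Cyr61 and Axl gave 0.23 and 0.32. In control CM-like cells, with 19 and 10 cells, rho with Ctgf was 0.25 and 0.04 for Cyr61, 0.22 and 0.41 for Ankrd1, and 0.19 and 0.16 for Axl. Wwtr1 reached 0.3 in both batches there, at 0.35 and 0.37. The share of all genes that did so in control cells was not computed, so nothing is read from it.

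Ctgf also went with properties of the cell as a whole. Its rho with the number of genes detected was 0.32 in batch 1 and 0.18 in batch 2. Its rho with the summed TPM of ribosomal protein genes was -0.67 and -0.35, and that sum was lower in cKO cells (median 60995 TPM) than in control cells (median 93842 TPM). Its rho with the mean of the immediate early genes, which dissociation can switch on, was 0.35 and 0.22, and with the mesenchymal marker mean 0.37 and 0.14. The part of the ribosomal, immediate early and mesenchymal transcripts was not tested. With the number of genes detected held fixed, the mean rho was 0.46 for Cyr61, 0.50 for Ankrd1 and 0.40 for Axl. Ctgf differed too among sets of cells whose names begin with the same number, whose meaning is not given. Numbers 1 to 6 are all of batch 1 and 7 to 12 of batch 2. The median of such sets of 4 to 7 cKO cells ran from 1.47 to 956 TPM in batch 1 and from 294 to 1277 TPM in batch 2.

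**Figure D5:**
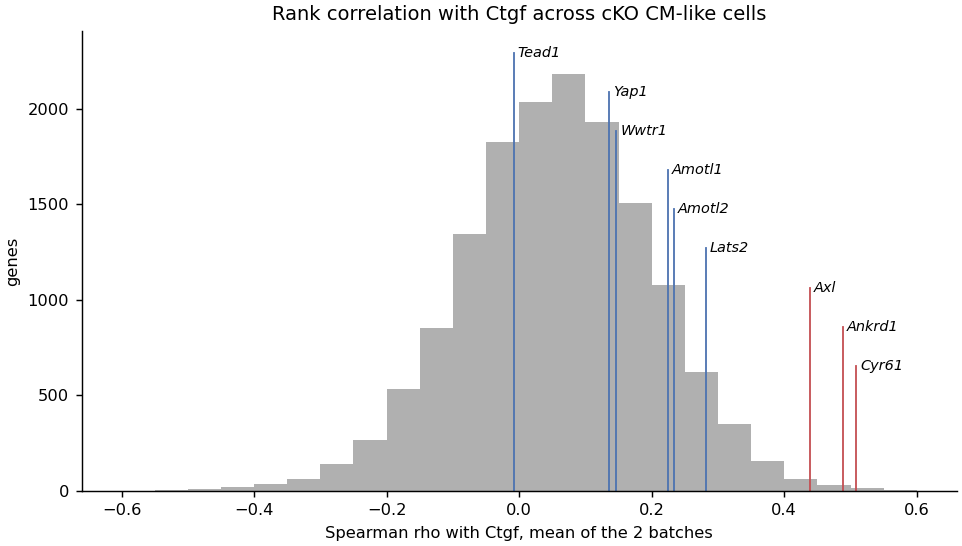
Histogram of the Spearman rho with Ctgf across cKO CM-like cells, averaged over the 2 batches, for 15066 genes (grey bars, count of genes); vertical lines mark the 9 other genes of the set, red where rho was at least 0.3 in both batches. Cyr61, Ankrd1 and Axl lay in the upper tail, and Tead1 near 0; the height of a line has no meaning.

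The genes most like Ctgf over the 67 cKO CM-like cells were taken from the 5743 genes at 1 TPM or more in over 50% of these cells, ranked by the mean rho of the batches. The 5 highest outside the set were Rasl11b (0.60), Kcnj5 (0.59), Ube2j1 (0.54), Cnn1 (0.54) and Tnfaip1 (0.54). Cnn1 encodes the smooth muscle protein calponin, and Kcnj5 an inward rectifier potassium channel. Of all genes with a value, 10 had a higher mean rho than Cyr61 and 22 a higher one than Ankrd1. Among the lowest were Gm11808 (-0.55), Rps24 (-0.53), Rpl28 (-0.50) and Rps2 (-0.49), of which the last 3 encode ribosomal proteins.

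Other genes of the pathway, taken from lists that hold some of the 10 genes as well, were mixed, and their counts stand beside 5.96% of all genes higher and 6.71% lower by the rule. Of 8 Hippo core genes, 2 exceeded control by the rule in cKO CM-like cells (Stk3, encoding the kinase MST2, by 1.41, and Lats2) and none was lower; the lowest was Nf2, at -0.36, and the list median was 0.85. Stk4, the partner of Stk3, was not called but went with Ctgf at a rho of 0.38 and 0.58. Of 14 upstream and junction genes, 2 were higher (Ajuba by 1.38 and Map4k4 by 1.34) and the lowest was Amotl1; the median was 0.38. Among 9 coactivator and TEAD genes, 6 passed the filter on low values. Tead1, Tead2 (1.09) and Tead3 (1.08) were higher, and Vgll4, whose product competes with YAP for TEAD, was lower by the rule.

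Vgll4 ran from 0 to 145 TPM in control cells, with a median of 4.42 TPM, and from 0 to 70.4 TPM in cKO cells, with a median at 0. It reached 1 TPM in 62.1% of control and 23.9% of cKO cells, and the difference was -1.80, with -1.40 and -2.58 by batch. Tead4, Vgll2 and Vgll3 did not pass the filter. In the CCN family, 3 of 6 genes passed, and beside Ctgf and Cyr61 this was Wisp1, with a difference of -0.59. Nov and Wisp2 stayed under 1 TPM in every CM-like cell.

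Reported YAP-TEAD targets outside the set were read by the same rule. Of 16 such genes 13 passed the filter, 1 was higher and none lower, and the median difference was -0.05. The one that was higher was Tgfb2, a TGF-beta ligand. It ran from 0 to 173 TPM in control cells, with a median of 11.1 TPM, and from 0 to 401 TPM in cKO cells, with a median of 102 TPM. Its difference was 2.92, with 2.86 and 3.03 by batch, and its rho with Ctgf was 0.39 and 0.42. The lowest was Ccdc80, at -0.73, and 5.96% of all genes were higher by the same rule.

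Ctgf is also a known target of SRF and of TGF-beta signalling, so these lists were read beside it, against 5.96% of all genes higher, 6.71% lower and 1.40% with a rho of at least 0.3 with Ctgf in both batches. Of 8 contractile genes linked to SRF, 4 were higher (Acta2 by 1.11, Tagln by 1.89, Cnn1 by 2.70 and Actn1 by 1.72). The lowest was Tpm1, at 0.56. All 8 had a difference above 0 in both batches, but that of Vcl was only 0.008 in batch 2. The share of all genes above 0 in both batches was not computed. Tagln, Cnn1 and Tpm1 had a rho of at least 0.3 with Ctgf in both batches, and the mean of the list had 0.54 and 0.36. Of 6 TGF-beta genes past the filter, Tgfb2 and Smad7 (1.55) were higher, both also with a rho of at least 0.3 with Ctgf in each batch; Tgfb3 was lowest, at -0.50. The TGF-beta median was 0.27, with 0.97 and -0.30 by batch. Of 10 immediate early genes, Atf3 (2.00) and Jun (1.53) were higher and Junb (-1.40) and Zfp36 (-1.88) lower. Of 6 cell cycle genes, Aurkb (1.36) was higher, and Ccnd2 (-2.31) and Birc5 (-1.44) were lower.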

How the data were processed

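Cells from the ventricular part of E9.5 hearts were dissociated with trypsin and collagenase, picked by hand and amplified by Smart-seq2. The authors quantified the reads with Salmon on mm10 and deposited TPM values per gene and cell; the Salmon version is not given in the sources used here. A TPM is relative to transcript length and to the total of the cell (996133 to 999999 here), so depth is unknown and an abundant transcript lowers all others. Of 170 labelled samples, 143 have a column matched by title and 27 were not analysed here. No count test was used.

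The members and the gene lists were chosen with earlier results of these data known. Cells were clustered by Ward linkage on z-scored log2(TPM + 1) of 55 markers into 5 clusters, named from markers at least 1 log2 unit above other cells; a cluster with most markers of 2 classes was left unnamed, a rule set after seeing the data. No doublet caller was run. Genes with a TPM above 0 in more than 10 CM-like cells entered the counts. A gene was called where the mean log2(TPM + 1) differed by at least 1 with the same sign in both batches, and a gene went with Ctgf where Spearman's rho was at least 0.3 in both. A share of cells is at 1 TPM or more. Named genes were all 10 members, the highest and lowest of each of 9 lists and the 5 genes most and least like Ctgf, of which 1 is not reported here. Python 3.11.15, numpy 2.4.6, pandas 2.3.3 and scipy 1.17.1 were used, and the functions were tested on simulated data. Alternatives covered the pseudocount, the summary, batch, clusters, cell filters and leaving out cells.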

Additional observations from a re-analysis of the deposited data

Results flagged for a closer look

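In the unnamed cluster whose top genes are mitochondrial, the 2 cKO cells, which entered none of the comparisons above, held Ankrd1 at 376 and 3386 TPM, above the highest of the 8 control cells of that cluster, at 252 TPM. It was picked out because it lies in cells outside the main measurement and above the control level of that cluster. No other gene of the set had both cKO cells above every control cell there. Control CM-like cells held Ankrd1 at up to 1389 TPM, above the lower of the 2 cKO cells. The mean log2(TPM + 1) of the cardiomyocyte marker Tnnt2 was 10.37 in the 2 cKO and 6.57 in the 8 control cells. Neither the Ankrd1 difference nor the part of cardiomyocyte transcripts in it was tested.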

How the results depend on the processing

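No paired analysis was possible because no result came from a test between genotypes. The number that opens a cell's name recurs in both genotypes, but its meaning is not given. Averaged within the 12 numbers, an alternative chosen after seeing the data, the difference was 2.27 for Ctgf (above 0 in 9 of 12), 3.05 for Ankrd1 (12), 1.80 for Axl (11), 1.31 for Lats2 (8) and 1.91 for Tead1 (10), and that of Amotl2 turned to -0.33. Numbers 5, 9, 11 and 12 hold 1 control CM-like cell each, and that of number 9 had Ctgf at 0 TPM. No label pairs the genotypes within a number, so these are not counts of replicates. Of 130 differences of the 10 genes under another pseudocount, summary, batch, clustering, cell filter or scaling, 126 kept their direction. The 4 that did not belonged to Amotl2, Yap1 and Wwtr1, and the other 7 genes kept theirs throughout. With 6 clusters the CM-like cells were the same 67 cKO and 29 control cells, so those differences could not change. The rule itself asks for the same sign in both batches, so 1 batch alone could not turn a called gene. The Ctgf difference ran from 1.57 to 3.80, and from 2.52 to 3.28 when the cells of 1 name number were left out. That alternative and leaving out cells high in erythroid or epicardial markers were also chosen after seeing the data. The number of genes higher by the rule was 5. It was 3 in batch 2 alone, and 7 in batch 1 alone, with 4 clusters and without the cells high in erythroid or epicardial markers; the cause was not tested. The upstream and junction median was -0.25 in batch 2 alone. The median of the contractile genes was 3.31 over all cells (69 cKO and 74 control) and 1.75 with 4 clusters (69 and 37). Both settings add cells of both genotypes from outside the main CM-like cluster, and their part was not tested. The TGF-beta median was 0.27, turned to -0.30 in batch 2 alone and was 1.55 for the 3 genes at 1 TPM in over 50% of either genotype. The number of genes that went with Ctgf was 3 in cKO and 1 in control CM-like cells. In cKO cells it was 2 with Pearson's correlation on log2(TPM + 1), and 2 among cells with a mitochondrial share under 10%. For control cells the share of all genes was not computed. Without counts or molecular identifiers, a TPM near 1 cannot be told from a few amplified molecules, and 1 sample per genotype leaves the spread between embryos unknown.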
